A study of Mus musculus with 3 samples.

Results

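Interferon-stimulated genes were followed across the cell types of mouse inguinal fat as a list of 43 symbols, chosen by name. The files held 42 of them among 31053 features, and Mx2 could not be measured by symbol. Every one of the 42 had at least 1 UMI (unique molecular identifier, 1 counted transcript) in the kept cells of each library. The cells were the stromal-vascular fraction of the inguinal white fat pad, captured with 10x 3' v3 chemistry after dead and red blood cells had been removed. There were 3 libraries, 1 for each genotype. The mouse tissue of the first was TERT +/+, called wild type below. The second came from Pdgfra-Cre; TERT fl/fl mice and is called the Pdgfra-Cre library. In the third, Pdgfrb-Cre was combined with the same floxed allele. The series asks how fat tissue transcription changes when telomerase is lost from mesenchymal progenitors. Tert encodes the catalytic subunit of telomerase. The Pdgfra promoter is active in mesenchymal progenitors and the Pdgfrb promoter in mural cells and part of the progenitors, so these drivers are used to reach mesenchymal cells, and blood cells and endothelium are not their usual targets. The wild-type label names neither Cre nor a floxed allele, and its title carries "PBS" without explanation. The labels used here state no age, sex, strain or number of animals. With 1 library per genotype, genotype and library cannot be told apart, and no test between genotypes was made.

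Interferons are secreted proteins that bind receptors on neighbouring cells and switch on a large set of genes through receptor-bound kinases and the transcription factors they activate. Type I interferons act on nearly all cells and drive antiviral effectors, whereas interferon gamma, made mostly by T and NK cells, favours antigen processing and the interferon-inducible GTPases. Most cells also keep a low, tonic level of these transcripts without infection. In fat, stromal, vessel and immune cells all carry the receptors. A subset of 28 measured members, called the core antiviral members here, holds the effectors, sensors and factors typical of type I interferon. The other 14 are the membrane restriction factors, Irf1, the antigen-processing genes and the GTPases.

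The link between these genes is partly written in their promoters, where the interferon-stimulated response element carries repeated GAAA letters. RefSeq windows of GRCm38.p6, from 250 bases before to 50 after a start site, were found for 33 members. The letters GAAANNGAAA, or TTTCNNTTTC on the other strand, stood in at least 1 window of 19 of these 33 (57.6%), against 1079 of 27025 genes (3.99%). They stood in all 5 GTPases matched and in all 3 sensors matched (Ifih1, Ddx58 and Eif2ak2), but in 0 of 3 antigen-processing genes. Of these last 3, Psmb9 and Tap1 lie on opposite strands with windows that share most of their bases, so they do not count separately. The letters TTCNNNGAA, which read the same on both strands and resemble the gamma-activated site, stood in 11 of 33 (33.3%) against 9.55% of genes. Matches of the 2 motifs were counted separately and may overlap, and a match describes letters and not a bound site. The 250 bases before the start site are shown for 3 core members with many UMIs whose levels recur below, so that windows with 3, 1 and 0 matches can be compared. They are Isg15 (chr4:156200819-156201068, minus strand), Rsad2 (chr12:26456453-26456702, minus strand) and Irf7 (chr7:141266425-141266674, minus strand). Capitals mark the GAAANNGAAA or TTTCNNTTTC matches.
Isg15: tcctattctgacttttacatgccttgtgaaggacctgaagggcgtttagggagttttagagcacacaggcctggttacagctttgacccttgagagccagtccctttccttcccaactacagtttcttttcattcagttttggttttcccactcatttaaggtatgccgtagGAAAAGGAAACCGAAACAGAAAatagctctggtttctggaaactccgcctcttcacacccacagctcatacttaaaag
Rsad2: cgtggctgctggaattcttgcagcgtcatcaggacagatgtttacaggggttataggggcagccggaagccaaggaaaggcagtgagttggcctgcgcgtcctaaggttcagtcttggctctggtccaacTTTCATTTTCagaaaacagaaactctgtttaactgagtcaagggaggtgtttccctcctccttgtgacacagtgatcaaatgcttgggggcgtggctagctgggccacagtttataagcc
Irf7: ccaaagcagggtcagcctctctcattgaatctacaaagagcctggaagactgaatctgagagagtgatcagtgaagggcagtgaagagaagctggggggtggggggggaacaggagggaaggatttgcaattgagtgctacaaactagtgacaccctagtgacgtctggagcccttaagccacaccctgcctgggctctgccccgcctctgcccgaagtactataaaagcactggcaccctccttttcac
In Isg15, 3 overlapping matches began 78, 72 and 66 bases before the start site (positions -78, -72 and -66). Rsad2 had 1 match on the opposite strand, from position -120, and these letters are not in the Irf7 window.

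Where 3 values follow each other, wild type comes first, then the Pdgfra-Cre and last the Pdgfrb-Cre library. Barcodes numbered 4124, 2310 and 4355, with 13352288, 14438471 and 30826733 UMIs in total. Filtering left 2668, 1409 and 3903 cells with medians of 3322, 7506 and 5690 UMIs. Between 3 and 4 barcodes of a library also occurred in another. Cells were clustered without the members and named by RNA markers, so each lineage name means cells like that type. The libraries were unequal in makeup and depth. Stromal cells numbered 251, 621 and 573, with median depths of 1650, 9677 and 10521 UMIs, and mostly came from different clusters: cluster 3 (led by Pi16) in wild type, cluster 25 (led by Sult1e1) in Pdgfra-Cre, and clusters 16 and 20 (led by Has1 and Mmp3) in Pdgfrb-Cre. Blood endothelial cells numbered 629, 123 and 201. Mesothelial cells came from Pdgfra-Cre alone. Tert gave 14, 7 and 10 UMIs in all kept cells and 3, 4 and 1 in stromal cells, too few to check the deletion.

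Lineages compared below are stroma, blood endothelium, mural and mesothelial cells, macrophages and monocytes, dendritic cells, T and NK cells and B cells. The few plasma, neutrophil, Schwann and lymphatic endothelial cells, at most 32 of a type in a library, were left out. Levels are UMIs scaled to 1000000 UMIs of a lineage in a library (CPM), with exact 95% Poisson intervals where given. All intervals here cover counting error alone, and not differences between animals or cells. The summed level of the 42 members was high in non-lymphoid cells and low in lymphocytes in each library. It was 9501, 7332 and 6297 CPM in macrophages and monocytes (macrophages below), 6024, 8542 and 6765 CPM in endothelium, 6689, 4956 and 3692 CPM in stroma, and 2737, 1658 and 1411 CPM in T and NK cells. B cells held 1986, 1408 and 993 CPM, the Pdgfra-Cre value resting on 25 cells. The summed level was higher in wild type than in both Cre libraries in stroma, macrophages, T and NK cells and B cells, and lowest in wild type in endothelium. Abundant Ifitm2 and Ifitm3 weigh heavily in this sum, at 605 and 2135 CPM in wild-type stroma and 11.7 and 10.5 CPM in its T and NK cells. Core members alone did not divide the cells in this way in wild type. There they summed to 1489 CPM in T and NK cells, 1168 CPM in B cells, 1312 CPM in endothelium and 898 CPM in dendritic cells. In the Cre libraries they summed to 585 and 602 CPM in T and NK cells and 1631.5 and 1229 CPM in endothelium.

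**Figure D1:**
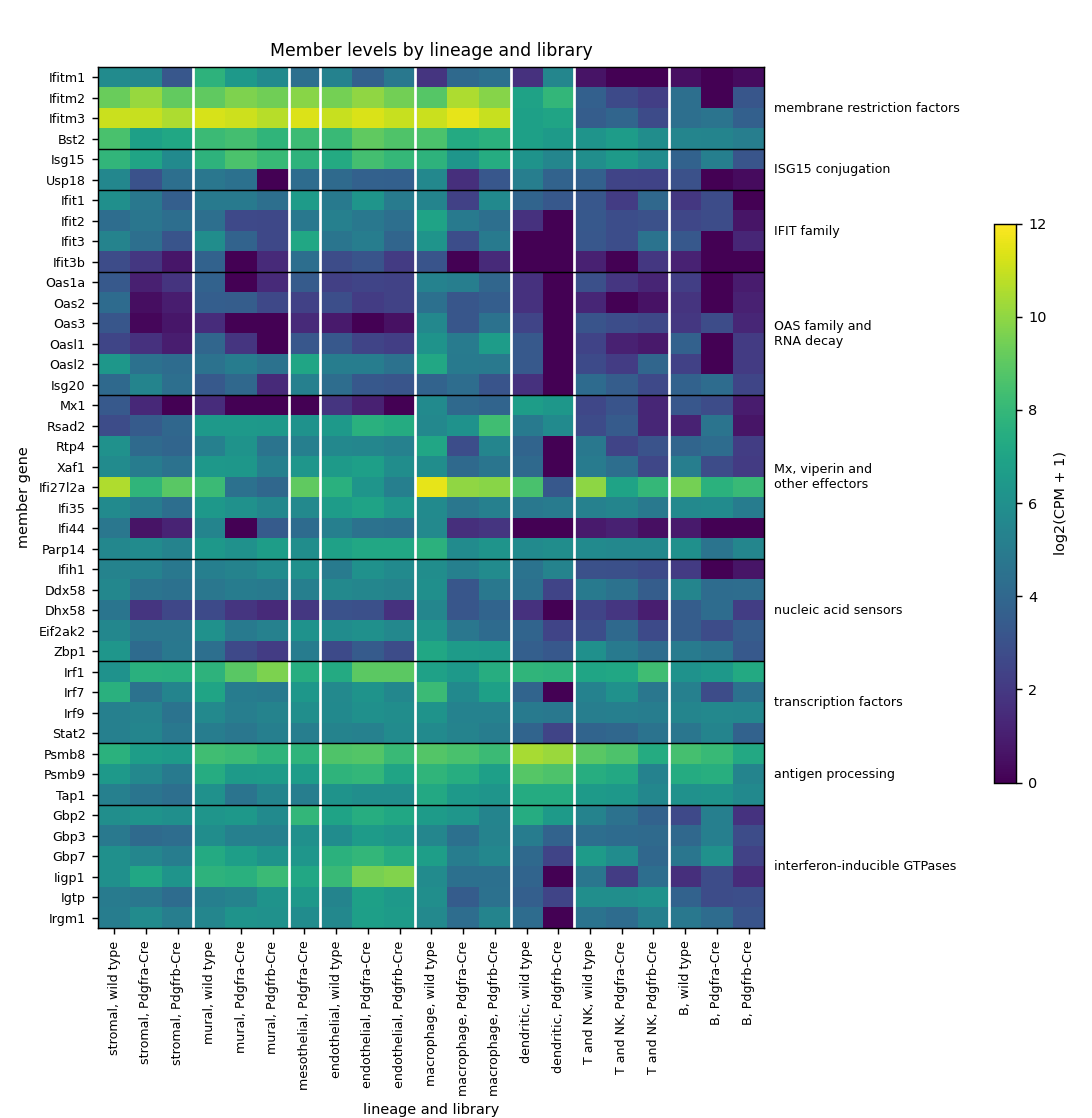
Colour gives log2(CPM + 1) for each of the 42 measured members (rows, grouped by role) in each of the lineages compared and each library with at least 20 cells (columns). Ifitm2 and Ifitm3 are bright in every lineage but dendritic cells and lymphocytes, Ifi27l2a is brightest in wild-type macrophages, and Iigp1 in the endothelium of the Cre libraries.

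The membrane restriction factors separated lymphocytes from the other cells. Ifitm3, which blocks virus entry at endosomal membranes, stood at 2135, 2057 and 1467 CPM in stroma, 2052, 2591 and 2004 CPM in endothelium and 2088, 3039 and 2020.0 CPM in macrophages. In T and NK cells it stood at 10.5, 13.9 and 5.80 CPM and in B cells at 19.5, 23.8 and 11.7 CPM. The stromal Pdgfrb-Cre value was the lowest outside lymphocytes and dendritic cells, and dendritic cells stood at 114 CPM in wild type and 129 CPM in Pdgfrb-Cre. Its neighbour Ifitm2 followed the same division, with 605, 1150.4 and 550.3 CPM in stroma and 11.7, 5.57 and 3.73 CPM in T and NK cells. Ifitm1 was scarcer, with its highest value of each library in mural cells at 215, 90.0 and 53.3 CPM. Bst2 (tetherin), which holds budding virus at the cell surface, was spread more evenly. It was highest in macrophages in wild type (388 CPM, with stroma close at 372 CPM and overlapping intervals) and in endothelium in both Cre libraries (535 and 407 CPM).

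The OAS family, which senses double-stranded RNA and starts its decay, was a macrophage group. Oas1a, Oas2, Oas3 and Oasl1 each stood highest in macrophages in all 3 libraries among lineages with at least 50 cells, although counts were low. Oasl1 was at 70.2, 30.5 and 97.7 CPM there and at 4.67, 2.28 and 0.977 CPM in stroma. Oasl2 was highest in macrophages in wild type (146 CPM), in mesothelial cells in Pdgfra-Cre (130 CPM) and in macrophages in Pdgfrb-Cre (27.4 CPM). Zbp1, a sensor of left-handed nucleic acid, also stood highest in macrophages throughout, at 140, 95.5 and 90.0 CPM, as did Dhx58 at 44.2, 8.13 and 13.7 CPM on the same terms. Isg20, a ribonuclease, was at or under 41.9 CPM in every lineage compared and stood at 16.4, 41.9 and 19.9 CPM in stroma. Reads of close copies, such as Ifit3 and Ifit3b or the OAS, Ifitm and guanylate-binding families, may be split between members by the counting, so single members of these families are less certain than their sum.

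Ifi27l2a, a small membrane-associated protein whose transcript is a sensitive interferon marker, had the same order. Macrophages were highest in each library at 2991, 1014 and 940.1 CPM, clear of the next lineage by their intervals. Lymphocytes carried it too, at 989, 123 and 253 CPM in T and NK cells and 718, 202 and 282 CPM in B cells. Endothelium was low, at 196, 74.5 and 35.4 CPM.

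Usp18, which takes Isg15 off its targets, stood at 46.8, 2.03 and 8.57 CPM in macrophages. Isg15 stood at 213, 389 and 266 CPM in mural cells, and at 238 CPM in wild-type stroma.

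Endothelium led for another set of members. Xaf1, Ifi35, Gbp7 and Iigp1 were highest there in each library among lineages with at least 50 cells. In wild type the intervals of Xaf1, Ifi35 and Gbp7 overlapped those of mural cells, which were too few to be ranked in the Cre libraries. Gbp7, a guanylate-binding protein, stood at 203, 242 and 172 CPM in endothelium. Iigp1, a GTPase that attacks vacuoles of intracellular pathogens, stood there at 280, 752 and 853 CPM. In Iigp1 the wild-type value was the low one, and the intervals of the 3 libraries (259 to 302, 697 to 811 and 814 to 892 CPM) did not overlap. Gbp2 stood at 122, 177 and 143 CPM in endothelium, and at 248 CPM in the mesothelial cells of Pdgfra-Cre. Those cells also held 142 CPM of Ifit3 and 93.6 CPM of Ifit1. Ifi35, an adaptor of innate sensing, stood at 99.5, 126 and 77.8 CPM in endothelium. Rsad2 (viperin), an antiviral radical enzyme, was at 85.0, 193 and 168 CPM in endothelium and at 5.84, 9.81 and 14.97 CPM in stroma. In Pdgfrb-Cre its highest lineage was macrophages, at 321 CPM. Ifih1 and Ddx58, sensors of viral RNA, and Eif2ak2, which halts translation on such RNA, were at or under 75.4 CPM in every lineage and library.

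Dendritic cells, 88 in wild type and 23 in Pdgfrb-Cre, held the highest levels of antigen processing. The immunoproteasome subunits Psmb8 and Psmb9 stood there at 1369 and 450.2 CPM in wild type and at 1162 and 395 CPM in Pdgfrb-Cre. Tap1, the peptide transporter, stood at 168 and 169 CPM. Psmb9 and Tap1 overlap at their 5' ends in the annotation. Mx1, a GTPase against influenza-type viruses, was at 102 and 79.8 CPM in dendritic cells and at or under 52.0 CPM elsewhere. Yet Ifit3, Ifit3b and Ifi44 had no UMI in the dendritic cells of either library, where 3 counts would be 6.82 and 13.3 CPM. The lineage that stood highest was the same in all 3 libraries for 11 of the 42 members, the 4 OAS genes, Zbp1, Dhx58 and Ifi27l2a in macrophages and the 4 endothelial ones. Lineages compared differed between libraries, since only those with 50 cells entered (7, 5 and 5 of them). For Oas1a, Oas2, Oas3, Dhx58, Xaf1, Ifi35 and Gbp7 the intervals of the highest and the next lineage overlapped in wild type or a Cre library.

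Cre libraries were then set against wild type in the 7 combinations of lineage and library with at least 100 cells on both sides. A member entered with at least 10 CPM in either library, and log2 ratios have 10 CPM added on both sides. In stroma, 11 of 22 core members that entered for Pdgfra-Cre and 15 of 23 for Pdgfrb-Cre were at least 2-fold lower, and 1 was higher in each. Of 36 members that entered for Pdgfra-Cre, 13 (36.1%) were lower to that extent and 3 higher, beside 11.2% lower and 13.2% higher among all features that entered. Of 37 for Pdgfrb-Cre, 19 (51.4%) were lower and 2 higher, beside 13.4% and 9.61%. Median log2 ratios of members were -0.60 and -0.85, against 0.03 and -0.09 over all features. Among core members that entered, medians were -0.82 and -1.10, and among the others -0.18 and -0.54. Both comparisons use the same wild-type cells. Scaling to totals without mitochondrial and ribosomal protein genes moved the median of all features from 0.03 to -0.10 for Pdgfra-Cre. It gave 20 lower and 3 higher of 40 members, beside 14.7% and 10.8% of all features. Thinning cells to 1000 UMIs gave 20 lower and 4 higher of 38, beside 17.2% and 18.3%.

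**Figure D2:**
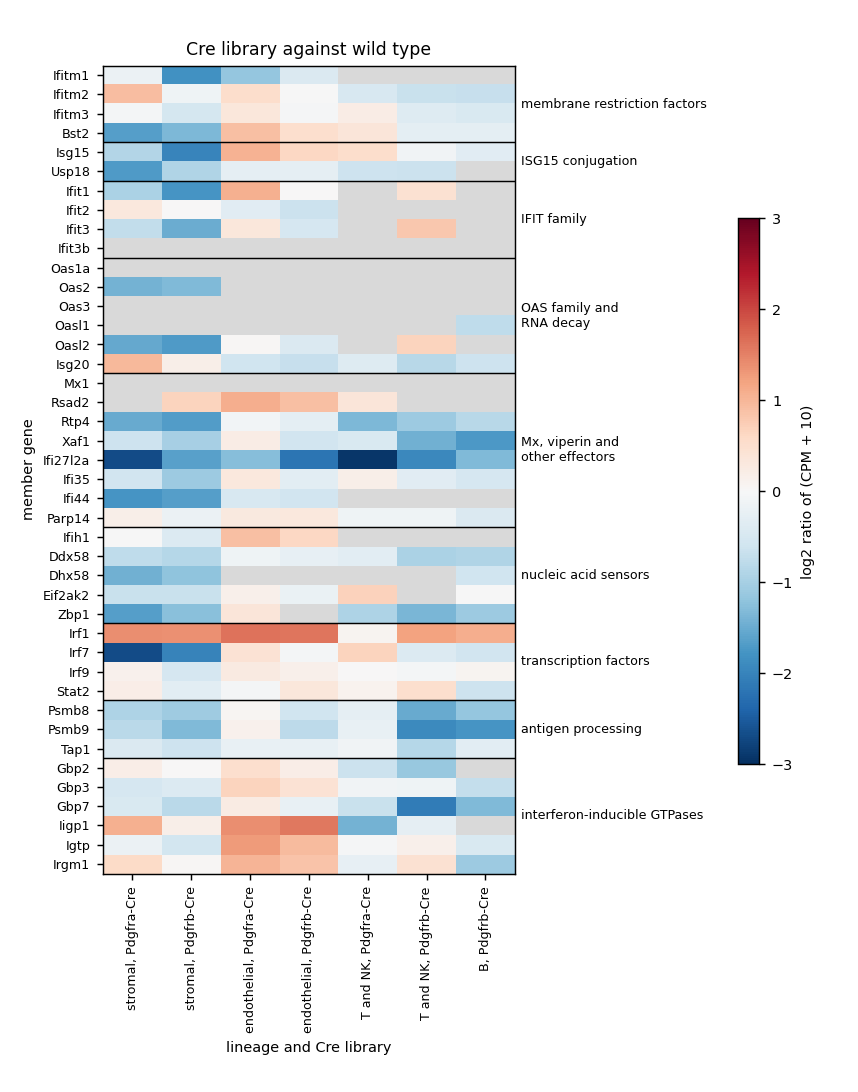
Colour gives the log2 ratio of (CPM + 10), Cre library over wild type, for each member in the 7 comparisons, and grey marks members under 10 CPM in both. Ifi27l2a is blue in every column, Irf1 is red in all but the Pdgfra-Cre T and NK column, and core rows are mostly blue in the stromal columns.

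Among members that reached 50 CPM on either side, the 2 lowest log2 ratios with 10 CPM added were those of Irf7 and Ifi27l2a for Pdgfra-Cre and of Irf7 and Isg15 for Pdgfrb-Cre. By the plain ratio, 2 scarcer members were lower still in Pdgfrb-Cre. Ifitm1 stood at 54.9 CPM in wild type and 8.46 CPM in Pdgfrb-Cre, 6.49-fold lower (4.28 to 9.82), and Ifit1 was 5.51-fold lower (3.78 to 8.004). In wild type, 46 Ifitm1 UMIs came from the 66 cells of cluster 20 and 1 from the 155 cells of cluster 3. Ifi27l2a stood at 1537 CPM in wild type, 231 CPM in Pdgfra-Cre and 494 CPM in Pdgfrb-Cre. It was 6.64-fold lower (95% interval 6.15 to 7.17) and 3.11-fold lower (2.92 to 3.32). Irf7, the factor that amplifies interferon production, stood at 196, 22.1 and 41.2 CPM, or 8.89-fold lower (7.02 to 11.3) and 4.77-fold lower (3.90 to 5.82). The wild-type value was the high one for both, with no overlap of intervals. Isg15, a ubiquitin-like modifier, stood at 238, 126 and 52.9 CPM, and Usp18 at 45.6, 7.18 and 19.7 CPM. Isg15 was 4.51-fold lower in Pdgfrb-Cre (3.76 to 5.39), whereas its ratio in Pdgfra-Cre was 0.53 (0.45 to 0.62) and short of 2-fold. The Pdgfra-Cre log2 ratio of Isg15, -0.87, was -1.03 without mitochondrial and ribosomal protein genes, -1.25 after thinning cells to 1000 UMIs and -1.42 as a mean over cells. Bst2 stood at 372, 112 and 141 CPM, 3.31-fold (2.88 to 3.79) and 2.64-fold lower (2.31 to 3.001).

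Other core members in stroma followed. Oasl2 stood at 80.6, 21.2 and 17.9 CPM, Rtp4, a receptor-transport protein that binds viral RNA, at 66.6, 17.0 and 14.2 CPM, and Zbp1 at 77.1, 17.5 and 26.7 CPM. Ifi44 stood at 25.7, 0.526 and 1.30 CPM and Oas2 at 17.5, 0.350 and 0.977 CPM, all on 22 UMIs or fewer. In the IFIT family, which binds viral RNA caps, Ifit1 stood at 61.9, 27.2 and 11.2 CPM and Ifit3 at 39.7, 19.97 and 7.65 CPM. Wild type was the highest library for all of these. Ifit2, at 18.7, 25.6 and 18.9 CPM, was not ordered in that way. Of the sensors, Ddx58 stood at 46.7, 23.3 and 21.5 CPM and Eif2ak2 at 46.7, 25.9 and 25.9 CPM. Ifi35 stood at 52.6, 31.9 and 19.2 CPM. Of the antigen-processing genes, Psmb8 stood at 201, 100.4 and 90.5 CPM, Psmb9 at 90.0, 47.3 and 30.1 CPM and Tap1 at 36.2, 24.2 and 20.2 CPM.

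Not all members were lower in Cre stroma. Ifitm3 was at a ratio of 0.96 (0.92 to 1.01) in Pdgfra-Cre. The 6 GTPases had no member 2-fold lower in either library, with medians of 0.01 and -0.20. Parp14, an ADP-ribosyltransferase, stood at 46.7, 53.8 and 40.2 CPM, and Irf9, a DNA-binding factor of the type I response, at 36.2, 40.3 and 22.6 CPM. Gbp2 stood at 60.8, 71.3 and 61.2 CPM and Gbp7 at 64.3, 43.8 and 32.7 CPM. Irf1 was 2.86-fold (2.20 to 3.80) and 2.83-fold higher (2.17 to 3.75), and Iigp1 2.27-fold higher (1.72 to 3.04) in Pdgfra-Cre alone, at 63.1, 143 and 71.9 CPM. For Pdgfrb-Cre the Iigp1 ratio of 1.14 (0.86 to 1.54) turned to a log2 ratio of -0.30 when cells were thinned and -0.29 as a mean over cells.

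Markers of other cells moved with these values. Summed leukocyte markers (14 genes, among them Ptprc, Cd74 and Ighm) stood at 1286, 57.8 and 232 CPM in stroma, and 0, 1 and 0 of the 14 had no UMI. Mitochondrial genes took 3.97%, 1.94% and 2.88% of stromal UMIs. In stromal cells with no leukocyte-marker UMI (37, 456 and 234 cells) Ifi27l2a stood at 1893, 237 and 510.3 CPM and Irf7 at 258, 23.6 and 28.8 CPM. The median log2 ratios of members in those cells were -0.82 and -0.94, against 0.01 and -0.12 over all features. Depth differed there too, with medians of 1814, 9572.5 and 8997.5 UMIs a cell. Within stromal cluster 20, the single stromal cluster with 50 cells in a pair of libraries, 24 of 40 members that entered were 2-fold lower in Pdgfrb-Cre and 2 higher, beside 17.1% lower and 12% higher over all features. Their median was -1.07, against -0.10 over all features. Fewer cells of a state and less RNA per cell cannot be told apart in summed counts.

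**Figure D3:**
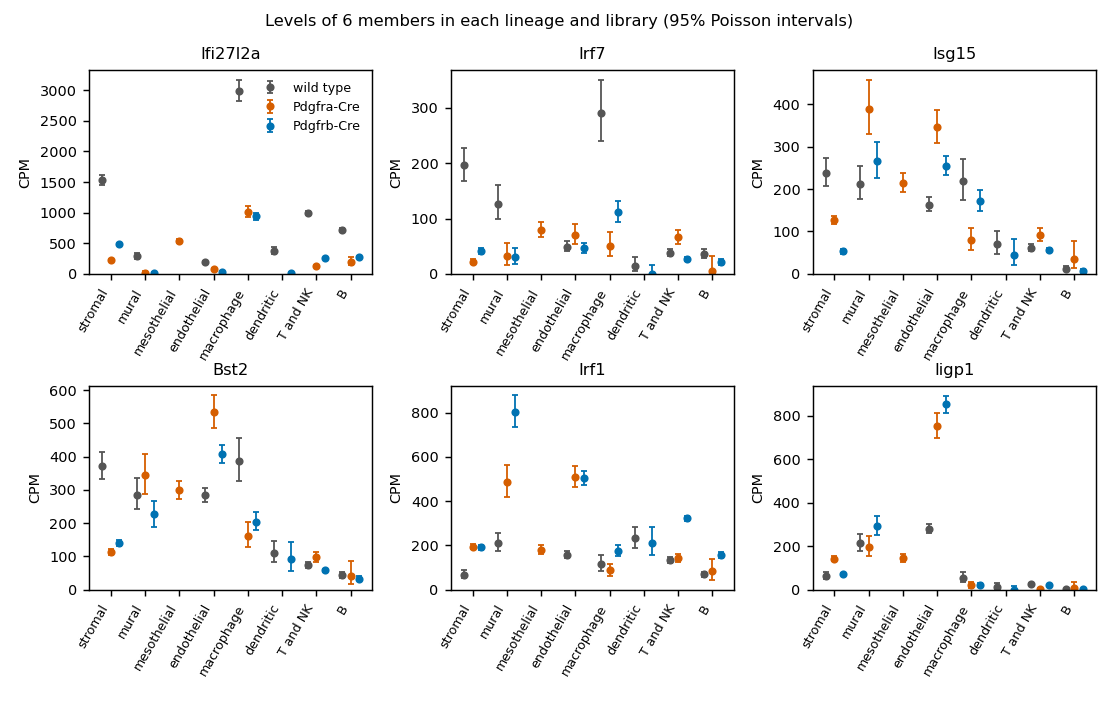
Points are CPM of 6 members in each lineage by library, with 95% Poisson intervals, on linear axes from 0. Wild type is highest for Ifi27l2a in every lineage it shares with a Cre library and for Irf7 in stroma, mural cells and macrophages, while the Cre libraries are higher for Irf1 in stroma, mural cells and endothelium and for Iigp1 in endothelium.

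Wild-type stroma was itself uneven. One cluster of 30 cells, cluster 22, held wild-type cells alone and was led by Cthrc1, Postn and collagen genes, which are known from matrix-building fibroblasts. Nov, Thbs2, Ccl8, Ube2c and Spata7 were also among its 10 leading genes. Genes that respond to interferon but stand outside the member and pathway lists were not withheld from the clustering. Cluster 22 was singled out after its values were seen, so they are given as a description with no test. Core members summed to 6806 CPM in its cells, against 2363 CPM in cluster 3 and 2349 CPM in cluster 20 of the same library. Its 30 cells, 11.95% of wild-type stroma, carried 26.3% of the core UMIs. Bst2 stood at 1550.2 CPM there and at 226 CPM in the other wild-type stromal cells, a ratio of 6.86 (5.47 to 8.61). Irf7 stood at 733 and 130.0 CPM (5.64, 4.08 to 7.74), Isg15 at 860.0 and 162 CPM (5.32, 3.97 to 7.11) and Ifi27l2a at 3461 and 1299 CPM (2.67, 2.34 to 3.02). Ifitm1 had no UMI in cluster 22 and 1 in cluster 3. Irf1 and Iigp1 did not share the pattern, with ratios of 0.93 (0.33 to 2.17) and 0.83 (0.26 to 2.06). Leukocyte markers summed to 2187 CPM in cluster 22 and 1174 CPM in the other cells, and their part in the result was not tested. Without cluster 22 the stromal medians of members were -0.34 and -0.64, against 0.06 and -0.07 over all features.

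**Figure D4:**
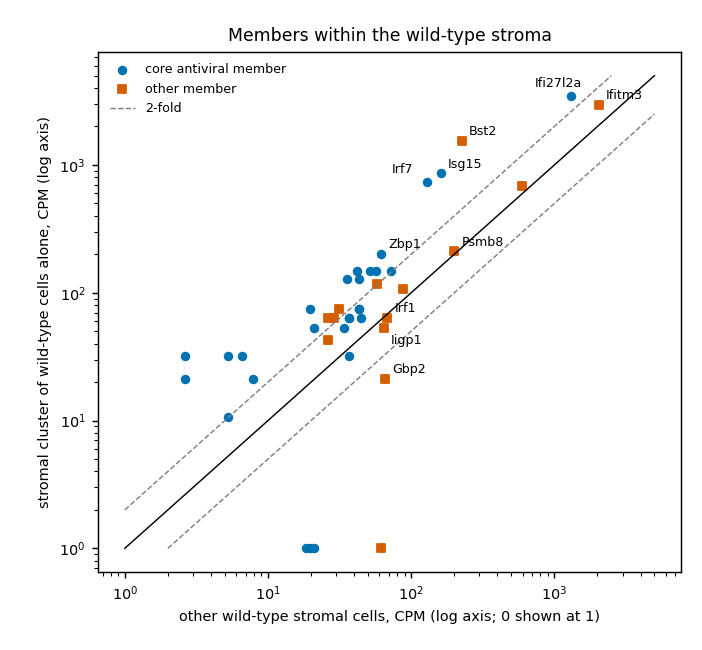
Each point is a member, with its CPM in the other 221 wild-type stromal cells (x axis) and in the 30 cells of cluster 22 (y axis), both on log axes. Bst2, Isg15, Irf7 and Ifi27l2a lie above the upper 2-fold line, Irf1, Iigp1 and Psmb8 lie near the diagonal, and 4 members have no UMI in cluster 22.

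In endothelium the picture differed. Of 35 members that entered for Pdgfra-Cre, 8 (22.9%) were at least 2-fold higher and 3 lower, beside 5.02% higher and 8.43% lower over all features. For Pdgfrb-Cre, 3 of 34 were higher and 2 lower, beside 6.65% and 7.53%, which is close to the background. Median log2 ratios were 0.29 and -0.13, against -0.04 and -0.05 over all features. Irf1 stood at 159, 510.1 and 504 CPM, 3.21-fold higher (2.80 to 3.69) and 3.17-fold higher (2.82 to 3.58). Iigp1 was 2.69-fold (2.41 to 2.995) and 3.04-fold higher (2.78 to 3.33). Igtp, a related GTPase, stood at 41.0, 113 and 87.9 CPM and Irgm1 at 48.2, 108 and 96.2 CPM. Isg15 stood at 163, 346 and 255 CPM, so its wild-type value was the lowest in endothelium and the highest in stroma. The 6 GTPases held 3 and 2 of the higher members, with medians of 0.85 and 0.65. Psmb9 stood at 225, 248 and 127 CPM. The split of calls moved with the scaling. As a mean over cells 5 of 35 members were higher and 3 lower for Pdgfra-Cre, beside 10.5% higher and 13.9% lower over all features. Thinning gave 7 higher and 2 lower of 35 for Pdgfra-Cre, beside 18.4% and 11.0%, and 5 higher and 5 lower of 35 for Pdgfrb-Cre, beside 15.2% and 14.1%. Without mitochondrial and ribosomal protein genes 3 of 35 were higher and 3 lower for Pdgfrb-Cre, beside 5.64% and 9.73%. Ifi27l2a was lower under each of these scalings and was 2.64-fold (2.04 to 3.46) and 5.54-fold lower (4.35 to 7.15).

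Within cluster 10, led by Gpihbp1 and present in all libraries (262, 75 and 134 cells), 33 members entered for each Cre library. For Pdgfra-Cre 7 were higher and 1 lower, beside 8.91% and 9.01% over all features. For Pdgfrb-Cre 4 were higher and 5 lower, beside 9.63% and 8.09%. Cells of cluster 5, led by Rbp7, Sema3g and Gja4, carried the most core RNA of wild-type endothelium: 2390 CPM, against 1437 CPM in cluster 10 and 865 CPM in cluster 7. Isg15 stood at 610 CPM in wild-type cluster 5 and at 301 and 348 CPM in the same cluster of the Cre libraries (21 and 38 cells), opposite to the order over all endothelium. Leukocyte markers summed to 1381, 213 and 286 CPM in endothelium and haemoglobin genes to 1915, 17916 and 3.22 CPM, and the part of haemoglobin in the result was not tested. In endothelial cells with no leukocyte-marker UMI (105, 62 and 69 cells), 5 of 36 members were higher and 5 lower for Pdgfra-Cre, beside 11.4% and 12.6% over all features. Their median was 0.03, against -0.04 over all features. For Pdgfrb-Cre 8 of 36 were lower and 4 higher, beside 12.4% and 12.3%, with a median of -0.35 against -0.03. Isg15 stood at 273, 269 and 260.5 CPM in those cells.

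Macrophages had too few cells for the counts of 2-fold members (67, 76 and 125), and their levels are given as values. Core members summed to 5228, 1758 and 2302 CPM. Irf7 stood at 291, 50.8 and 111 CPM, Isg15 at 218, 79.3 and 172 CPM, and Ifit2 at 122, 28.5 and 19.7 CPM. Wild type was highest for each. Rsad2 and Oasl1 were highest in Pdgfrb-Cre instead.

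T and NK cells of Pdgfra-Cre had 6 of 28 members 2-fold lower and 1 higher, beside 5.03% lower and 11.8% higher over all features, with a median of -0.18 against 0.16. Those of Pdgfrb-Cre had 12 of 29 lower and 3 higher, beside 15% lower and 8.42% higher, with a median of -0.38 against -0.09. Scaling without mitochondrial and ribosomal protein genes moved the median of all features from 0.16 to -0.04 for Pdgfra-Cre T and NK cells. It gave 10 of 36 members lower and 1 higher, beside 9.51% and 7.74% of all features. In B cells of Pdgfrb-Cre 14 of 26 were lower and 1 higher, beside 12.4% and 9.99%, with a median of -0.63 against -0.02. Ifi27l2a was 8.07-fold (7.04 to 9.29) and 3.91-fold lower (3.72 to 4.12) in T and NK cells and 2.55-fold lower (2.36 to 2.76) in B cells. In Pdgfra-Cre T and NK cells Zbp1 was 2.23-fold lower (1.64 to 3.07), while Irf7 stood at 66.3 CPM against 38.4 CPM in wild type, a ratio of 1.73 (1.34 to 2.23), and Isg15 at 91.9 against 60.8 CPM. In B cells Psmb9 was 4.01-fold lower (3.31 to 4.89), and Irf1 was the 1 higher member, at 157 against 68.8 CPM. Psmb9 stood at 175, 149 and 39.2 CPM in T and NK cells, and Gbp7 at 96.1, 56.2 and 14.8 CPM. The Pdgfrb-Cre value was the low one for both, 4.45-fold (3.92 to 5.06) and 6.48-fold (5.33 to 7.90) under wild type. T and NK cells also came mostly from different clusters: cluster 11 in wild type (391 of 633 cells), cluster 8 in Pdgfra-Cre (198 of 303) and cluster 2 in Pdgfrb-Cre (780 of 1569). Within cluster 8, with 76 wild-type cells, median log2 ratios of members were -0.28 and -0.76, against 0.19 and -0.06 over all features. Within cluster 12 the Pdgfrb-Cre median was -0.51, against -0.10. B cells came from cluster 4 in wild type (591 of 613 cells) and from cluster 6 in Pdgfrb-Cre (944 of 954). Haemoglobin genes summed to 145, 10280.1 and 1.28 CPM in T and NK cells, and their part in these values was not tested.

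Among T cells, cluster 12 stood apart. Its leading genes Ikzf2, Ctla4, Tnfrsf18 and Icos are typical of regulatory T cells. Ifi27l2a stood there at 2908 CPM in wild type (111 cells) and 1288 CPM in Pdgfrb-Cre (191 cells). In cluster 8, led by Ccl5 and Cd8b1, it stood at 493, 134 and 88.7 CPM, and in cluster 9, led by Gzma, at 199.995, 31.8 and 66.1 CPM. Wild type was the higher library within each of these clusters. The other core members summed to 731 and 494 CPM in cluster 12, to 559, 451 and 299 CPM in cluster 8 and to 617, 527 and 371 CPM in cluster 9, so cluster 12 stood apart in Ifi27l2a more than in the rest.

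Across lineages, Ifi27l2a was the single member at least 2-fold lower in all 3 lineages compared for Pdgfra-Cre and in all 4 for Pdgfrb-Cre, of 27 and 22 members that entered in each of them. Such counts were not made over all features, in either direction. Irf1 was the single member 2-fold higher in all 4 for Pdgfrb-Cre, and none was higher in all 3 for Pdgfra-Cre, where the ratio of Irf1 in T and NK cells was 1.06 (0.90 to 1.23). Within clusters its order varied. In B cluster 6 Irf1 stood at 168 CPM in wild type (80.5 to 309, 22 cells) and 157 CPM in Pdgfrb-Cre. In T and NK clusters 8, 9 and 12 it stood at 136, 149 and 152 CPM in wild type. The Pdgfrb-Cre values there were 193, 107 and 298 CPM. Cluster 2, with 780 Pdgfrb-Cre cells, held 448 CPM in that library. Irf1 is also known as a rapid response gene of several other stimuli. Mural cells, too few to enter, held Irf1 at 213, 487 and 804 CPM.

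Shares of cells with several members were lower in the Cre libraries in stroma. Each cell was thinned to 1000 UMIs, and a cell was counted with at least 3 different members. Intervals cover counting error among the cells of 1 library. In stroma the share was 70.6% in wild type (exact binomial interval 64.1 to 76.6, 218 cells), 53.1% in Pdgfra-Cre (49.1 to 57.2, 608 cells) and 42.5% in Pdgfrb-Cre (38.4 to 46.6, 570 cells). Thinning left out 33, 13 and 3 shallower stromal cells. Without thinning the order turned, at 84.1%, 94.0% and 96.5%, with the deeper libraries higher. In endothelium the shares were 81.7%, 82.1% and 83.7%, and the differences from wild type were 0.48 points (-8.48 to 7.98) and 2.01 points (-4.73 to 8.06), both including 0. With 5 members required the difference of Pdgfra-Cre endothelium was 14.0 points. Macrophages gave 86.7%, 69.6% and 64.8%, T and NK cells 31.6%, 20.9% and 12.7%, and B cells 20.5% in wild type and 6.15% in Pdgfrb-Cre. Wild-type mural cells gave 71.8%, wild-type dendritic cells 50.6% and mesothelial cells 78.9%.

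Cells with many core members at once were few in most lineages. At least 5 of the 28 core members occurred in 17 of 218 wild-type stromal cells (7.80%, 4.61 to 12.2), in 4 of 608 of Pdgfra-Cre (0.658%, 0.180 to 1.68) and in 2 of 570 of Pdgfrb-Cre (0.351%, 0.0425 to 1.26). Of those 17 cells, 8 belonged to cluster 22, where they were 27.6% of 29 cells, and 9 to the other 189. In macrophages the shares were 25% (14.7 to 37.9), 2.90% (0.353 to 10.1) and 6.56% (2.87 to 12.5). Mesothelial cells gave 3.25% (0.893 to 8.12) and wild-type endothelium 1.13% (0.417 to 2.45). Ifi27l2a alone was seen in 63.8%, 15.3% and 30.5% of thinned stromal cells and in 39.6%, 9.30% and 15.7% of T and NK cells. In endothelium it was seen in 18.9%, 6.25% and 3.57%.

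**Figure D5:**
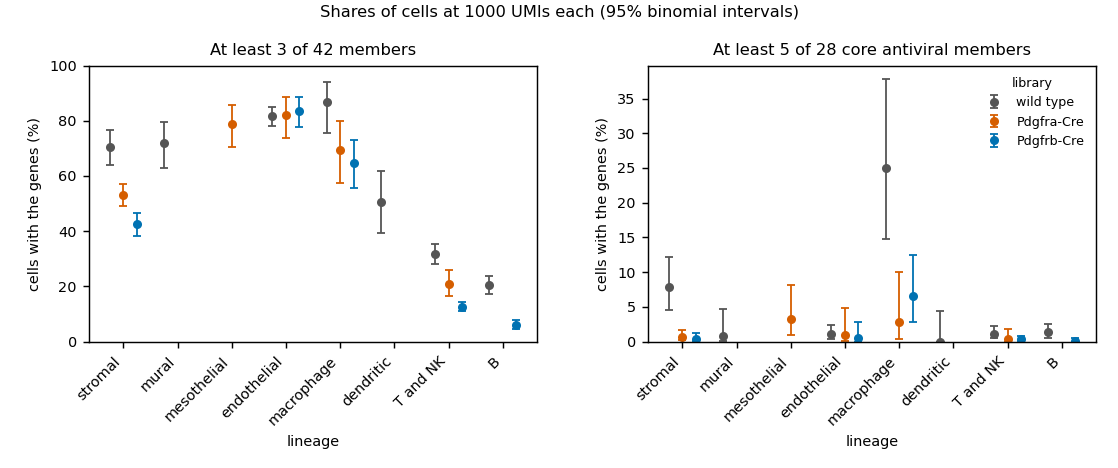
Points are shares of cells, each thinned to 1000 UMIs, with at least 3 of the 42 members (left) and at least 5 of the 28 core members (right), by lineage and library, with exact 95% binomial intervals. Wild-type stroma, macrophages and lymphocytes lie above the Cre libraries on the left, endothelial points lie together, and wild-type macrophages stand highest on the right at 25%.

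The ligands of the pathway were almost unseen except interferon gamma. All 21 interferon genes listed were found by symbol, and 6 had a UMI. The type I genes gave 29 UMIs in all kept cells, 16 of them from Ifnk and 6 from Ifnb1. Ifng gave 3475 UMIs and stood at 148, 438 and 174 CPM in T and NK cells, 2.96-fold higher in Pdgfra-Cre (2.65 to 3.31). Its receptor chain Ifngr1 stood at 90.7, 680.0 and 452 CPM in the same cells and at 171, 209 and 132 CPM in stroma. T and NK cells differed in makeup between libraries. Clusters 8 and 9, led by Ccl5 and Gzma, held 198 and 69 of 303 such cells in Pdgfra-Cre, and 76 and 36 of 633 in wild type. Levels of Ifng and Ifngr1 within single clusters are not given here, and the part of makeup in them was not tested. Ifnar1 and Ifnar2, the type I receptor, were present in every lineage.

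For the other genes of the pathway, the shares of all features past 2-fold are those given above for each comparison. Of the 50 pathway genes beyond the members, 23 entered in stroma for Pdgfra-Cre, with 4 at least 2-fold lower and 4 higher, beside the 11.2% and 13.2% of all features. For Pdgfrb-Cre 22 entered, with 3 lower and 4 higher, beside 13.4% and 9.61%. In stroma Socs3, a feedback inhibitor of interferon signalling, stood at 167, 1495 and 406 CPM, and the related inhibitor Socs1 at 21.0, 64.7 and 78.0 CPM. Both wild-type values were the low ones. Irf8 and Ptpn6, abundant in leukocytes, stood in stroma at 67.8, 8.06 and 6.51 CPM and at 23.4, 1.93 and 1.46 CPM. In endothelium 25 entered for each Cre library, with 3 lower and 3 higher for Pdgfra-Cre (8.43% and 5.02% of all features) and 1 lower and 4 higher for Pdgfrb-Cre (7.53% and 6.65%). T and NK cells had 2 of 24 lower and 8 higher for Pdgfra-Cre (5.03% and 11.8%) and 5 of 23 lower and 6 higher for Pdgfrb-Cre (15% and 8.42%). B cells of Pdgfrb-Cre had 7 of 22 lower and 3 higher (12.4% and 9.99%).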

How the data were processed

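The deposited files hold raw UMI counts per gene and barcode, which the authors produced on the mm10 build using Cell Ranger 3.1.0 and STAR 2.6, per the submitters' processing notes. Kept cells had at least 500 genes and at most 15% mitochondrial counts, and the cells with the highest Scrublet scores (0.8% per 1000 barcodes) were left out as likely doublets. Cells were clustered with scanpy 1.11.5 (2000 variable genes, 30 components, 15 neighbours, Leiden resolution 1) without members, pathway genes, mitochondrial, ribosomal or sex-linked genes, and without integration. This gave clusters named from markers of 18 classes, with T and NK joined. Haemoglobin genes were left out of leading genes, and clusters with no own marker among their leading genes stayed unnamed where their best class led by less than 25 points. Both choices were made after the clusters were seen. Clusters led by genes of another class also stayed unnamed.

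The members, lists and tests were chosen with earlier results of these data known. Members were grouped by role. The 3 with most UMIs in each role are given in full, with the 2 largest ratios in each direction in each comparison (at least 50 CPM in either library and 20 UMIs). A ratio against 0 UMIs used 3 UMIs in its place. Intervals are exact at 95% (Poisson, binomial, or binomial conditional on the total for ratios) and cover counting error. Alternatives changed cell filters, doublets, scaling, depth, thresholds, clustering and the members required. No column was left without a sample. Calculations used Python 3.11.15, numpy 2.4.6 and scipy 1.17.1. Promoter windows are RefSeq's for GRCm38.p6. Cells in unnamed clusters entered no comparison.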

Additional observations from a re-analysis of the deposited data

Results flagged for a closer look

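4 members differed from wild type in opposite directions in 2 lineages of the same Cre library, each by at least 2-fold and with counting intervals clear of a ratio of 1 on both sides. The difference itself was not tested, since each genotype has 1 library. Opposite directions were not counted over all features, so whether members do this more often than other genes is not known. Ifit1 in Pdgfra-Cre had a log2 ratio of 1.07 in endothelium and -0.95 in stroma, a difference of 2.02. Iigp1 in Pdgfra-Cre had 1.39 in endothelium and -1.42 in T and NK cells, a difference of 2.81. Within T and NK cluster 8, however, Iigp1 stood at 3.48 CPM in wild type and 3.75 CPM in Pdgfra-Cre. Wild-type cells of clusters 12 and 11 held 83.0 and 15.3 CPM, and Pdgfra-Cre had only 5 and 14 cells there. Ifit3 in Pdgfrb-Cre had 0.82 in T and NK cells and -1.49 in stroma, a difference of 2.31. Oasl2 in Pdgfrb-Cre had 0.67 in T and NK cells and -1.70 in stroma, a difference of 2.37. Both lineages came mostly from different clusters in wild type and Pdgfrb-Cre, and values of Ifit3 and Oasl2 within T and NK clusters are not given here. Isg20 in Pdgfra-Cre also stood 2-fold apart on both sides, but was left out by the interval. It was 2.56-fold higher in stroma (1.496 to 4.75), and in endothelium its ratio of 0.473 had an interval of 0.192 to 1.02.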

How the results depend on the processing

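Of 329 values recomputed under other settings, 250 stayed, 76 moved and 3 turned. The cause was not tested unless the setting itself shows it. No paired analysis was possible because each genotype has 1 library.

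Adding 1 CPM gave a B median of -1.17. Adding 50 CPM gave -0.26 there and -0.44 in Pdgfrb-Cre stroma. Counts at other folds, at the higher floor, with doublets kept and with the stricter filter are given without the share of all features. They show how the number called moved, and not whether members differed from other genes. At 1.5-fold, the higher counts were 5 in Pdgfra-Cre stroma, 7 in Pdgfrb-Cre endothelium, and 4 (Pdgfra-Cre) and 6 (Pdgfrb-Cre) in T and NK cells. The lower counts were 20, 9 and 10 in Pdgfra-Cre stroma, Pdgfrb-Cre endothelium and Pdgfra-Cre T and NK cells. At 3-fold, higher counts were 0 in both stromal, both T and NK and the B comparisons and 1 in Pdgfra-Cre endothelium. Lower counts were 11 in Pdgfrb-Cre stroma, 1 in each endothelial comparison, 3 in Pdgfra-Cre T and NK cells and 8 in B cells. With a floor of 50 CPM, fewer members entered. Lower counts were then 8 in Pdgfra-Cre stroma, 1 in each endothelial comparison, 2 and 5 in T and NK cells and 3 in B cells, and higher counts 1 in Pdgfrb-Cre stroma and 0 and 1 in T and NK cells.

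Without mitochondrial and ribosomal protein genes, 20 of 40 were lower in Pdgfra-Cre stroma, beside 14.7% of all features. In its T and NK cells 10 of 36 were lower, beside 9.51%. With cells thinned to 1000 UMIs before summing, 20 of 38 were lower in Pdgfra-Cre stroma, beside 17.2%. In Pdgfrb-Cre endothelium 5 of 35 were lower and 5 higher, beside 14.1% and 15.2%. In Pdgfra-Cre T and NK cells 2 of 31 were higher, beside 19.8%. With doublets kept, 6 were higher in Pdgfrb-Cre endothelium and 1 in its stroma. With the stricter cell filter, 4 were higher in Pdgfra-Cre T and NK cells, 1 was higher in Pdgfrb-Cre stroma and 5 were lower in its endothelium. Alternatives added after seeing the data gave the rest. In endothelial cells with no leukocyte-marker UMI, the median log2 ratio was 0.033 for Pdgfra-Cre. There 5 of 36 were higher and 5 lower, beside 11.4% and 12.6% of all features. For Pdgfrb-Cre the median was -0.35, with 8 of 36 lower, beside 12.4%. Within cluster 10, 1 and 5 of 33 were lower, beside 9.01% and 8.09%. Within cluster 8, 2 and 1 were higher in T and NK cells, and within cluster 12, 1.

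Shares without thinning turned in stroma, with differences from wild type of 9.98 and 12.4 points, while those in B cells were -32.5, in T and NK cells -2.33 and -4.15, in Pdgfrb-Cre endothelium 8.88 and in its macrophages -1.81 points. The stricter cell filter turned Pdgfra-Cre macrophages to 11.2 points and gave -25.1 and -36.5 points in stroma. With 2 members required the differences were -6.00 and -16.1 points in stroma, -25.7 in Pdgfrb-Cre T and NK cells and -19.1 in B cells. With 2 core members they were -31.3 and -36.7 points in stroma, -46.0 and -37.3 in macrophages and -10.5 in Pdgfrb-Cre T and NK cells. With 5 members they were -4.39 and -5.47 points in T and NK cells, -3.56 in B cells and 14.0 in Pdgfra-Cre endothelium. Thinned to 2000 UMIs, they were -8.04 and -14.7 points in stroma, -2.28 in Pdgfrb-Cre macrophages, -23.2 in its T and NK cells and -27.7 in its B cells. The wild-type stroma had the shallowest cells, which limits its low-count members most.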
